A study of Schizosaccharomyces pombe with 26 samples.

Results

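The genes described here encode the proteins of the small (40S) ribosomal subunit of the fission yeast Schizosaccharomyces pombe. They were taken as every spotted array feature whose name, without its IGR prefix, begins with rps and a digit in any case. This gave 53 genes in 30 families: 8 families have 1 gene on the arrays, 21 have 2 copies and the rps4 family has 3. All 53 were measured on the arrays of open reading frames (ORF, 4898 features in all), and 50 on the arrays of intergenic regions (IGR, 4963 features), where rps601, rps1801 and rps2801 had no measured product.

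Chromatin immunoprecipitation (ChIP) on 2-colour arrays was used to map the Mediator subunit Med15, carried as a myc-tagged protein, and histone H3. Each array type had 3 samples of Med15-myc against input, 3 of H3 in the hrp1 deletion strain (Δhrp1), 2 of H3 in the med15 deletion strain (Δmed15) and 2 of H3 in wildtype cells. All of these cells grew to mid-log phase in rich YES medium, and their chromatin was sheared to 600 to 1500 bp, a length that spans a ribosomal protein gene and its flanks. Of the series' 26 samples, 6 hold RNA and were not analysed here. The labels name no untagged strain as a control for the myc antibody, and the wildtype H3 samples were used only as deposited ChIP values, so H3 over input was analysed in the deletion strains alone.

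The small subunit binds messenger RNA and decodes it. Its proteins sit on the ribosomal RNA of a head, a body and a platform, and the mRNA threads between the head and the body. In fission yeast most of these proteins come from 2 unlinked gene copies, and in growing yeast ribosomal protein genes are among the most heavily transcribed genes, a state known to go with fewer nucleosomes. Mediator carries signals from activators to RNA polymerase II, and Med15 belongs to its tail module, which activators contact. Hrp1 is a CHD1-type ATPase that moves and evicts nucleosomes.

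In the RefSeq annotation of build ASM294v3, 27 of the genes lie on chromosome I, 19 on II and 7 on III. Their coding sequences were short, with a median of 435 bases (171 to 789), against 1137 bases for the 5113 protein-coding genes. Their median coding GC content was 47.7%, against 39.6% for all genes, and 29 of 53 (54.7%) had an intron, against 46.7%. The genes rps2 and rps20 are divergent neighbours on chromosome III with 490 bases between them. On chromosome II, rps29 and rps27 follow each other on the same strand with 441 bases between them, and rps1402 and rps1601 do so with 1000 bases.

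HomolD and HomolE are promoter elements known from fission yeast ribosomal protein genes, where HomolD takes the place of a TATA box. The windows of 250 bases before to 50 bases after each gene's start were searched on both strands for HomolD as CAGTCACA and for HomolE as CCCTACCCT, strings that do not overlap each other. HomolD was found in 33 of 53 small subunit windows (62.3%), against 54 of 86 large subunit windows (62.8%) and 137 of the 5112 windows of all genes (2.68%). HomolE was found in 23 of 53 (43.4%), against 26 of 86 (30.2%) and 78 of 5112 (1.53%). Both were found in 11 of 53 (20.8%), against 33 of 5112 (0.646%). The 34 HomolD matches began 43 to 85 bases before the start (median 52), and the 23 HomolE matches 60 to 91 bases before it (median 70).

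The 150 bases before the gene start are printed for the 2 genes with the highest and the 2 with the lowest intergenic Med15-myc ratio, in that order, from ASM294v3 in the 5′ to 3′ direction of each gene. Capitals mark HomolD or HomolE on either strand (TGTGACTG and AGGGTAGGG are their reverse complements). The promoter of rps1602, highest for Med15-myc, held neither exact string, and that of rps2202 held both. Near matches were not counted. The rps1602 promoter holds cgtgactg, which differs from TGTGACTG only in its first letter. That of rps13 holds cagtcacg, which differs from CAGTCACA only in its last letter.
rps1602, chrI:1711083-1711232, minus strand: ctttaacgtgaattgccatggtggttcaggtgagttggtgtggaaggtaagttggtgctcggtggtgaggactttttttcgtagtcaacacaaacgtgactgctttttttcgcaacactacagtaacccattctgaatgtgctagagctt
rps2202, chrI:1512391-1512540, minus strand: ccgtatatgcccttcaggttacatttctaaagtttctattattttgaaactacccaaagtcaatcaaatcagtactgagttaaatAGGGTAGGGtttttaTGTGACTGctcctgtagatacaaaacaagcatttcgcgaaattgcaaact
rps2401, chrI:3598944-3599093, plus strand: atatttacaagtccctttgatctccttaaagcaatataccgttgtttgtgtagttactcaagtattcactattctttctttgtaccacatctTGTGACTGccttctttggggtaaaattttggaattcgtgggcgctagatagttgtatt
rps13, chrI:2746693-2746842, minus strand: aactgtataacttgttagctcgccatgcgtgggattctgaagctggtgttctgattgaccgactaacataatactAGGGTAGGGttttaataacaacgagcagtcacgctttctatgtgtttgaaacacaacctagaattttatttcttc

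The next promoters belong to the other genes whose intergenic H3 signal passed the test in a deletion strain against wildtype. The labels do not say which side of a gene the IGR product of that name covers, so these windows are the annotated promoters and not necessarily the spotted DNA.
rps2, chrIII:2096037-2096186, minus strand: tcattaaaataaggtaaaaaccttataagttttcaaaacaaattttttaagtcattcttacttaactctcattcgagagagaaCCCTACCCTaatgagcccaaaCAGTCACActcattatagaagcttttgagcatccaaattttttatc
rps2201, chrI:1162659-1162808, minus strand: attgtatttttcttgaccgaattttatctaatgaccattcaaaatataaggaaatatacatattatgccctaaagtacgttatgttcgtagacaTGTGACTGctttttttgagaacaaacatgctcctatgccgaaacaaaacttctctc
rps1702, chrIII:917702-917851, plus strand: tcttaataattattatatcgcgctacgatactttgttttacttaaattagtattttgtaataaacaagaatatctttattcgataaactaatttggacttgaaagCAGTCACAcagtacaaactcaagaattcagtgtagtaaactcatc
rps1601, chrII:1793787-1793936, plus strand: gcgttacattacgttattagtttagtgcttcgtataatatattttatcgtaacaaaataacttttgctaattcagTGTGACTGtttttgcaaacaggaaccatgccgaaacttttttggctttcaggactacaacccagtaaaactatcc
rps502, chrI:3497401-3497550, minus strand: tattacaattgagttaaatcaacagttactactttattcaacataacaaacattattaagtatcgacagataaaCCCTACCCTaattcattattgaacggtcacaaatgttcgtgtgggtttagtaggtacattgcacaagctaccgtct

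Ratios are log2(ChIP / input), centred on each array's median, so that 0 is the median feature. They were computed from the spots as scanned, which is the planned setting, and after normexp, a background correction that keeps dim spots positive. The choice matters here. The local background of the Cy5 channel was up to 6493 intensity units, and that of Cy3 far lower. As scanned, H3 samples of opposite dye correlated over the members at -0.66 to -0.52 on IGR arrays and at -0.80 to 0.35 on ORF arrays, and the part of the background in this was not tested. After normexp the same pairs correlated at 0.29 to 0.70 on IGR arrays but at -0.25 to 0.65 on ORF arrays, so on ORF arrays some samples of opposite dye still ordered the members differently. Med15-myc samples of opposite dye correlated over the members at 0.21 to 0.44 (IGR) and -0.10 to 0.07 (ORF) after normexp. The labels give separate files to the IGR and ORF samples of one number, but their local backgrounds were nearly equal (2158.25 and 2158.5 units for the input of Med15-myc replicate 1), so the array types are not treated as independent. Replicates are numbered without a statement of separate cultures, so p-values reflect only spread among these samples, and precision is bounded by having few arrays. All p-values are from limma, adjusted by Benjamini-Hochberg over every feature of the array type, with 0.05 as the threshold, and ± is the standard error of the fit. The fit draws each feature's spread toward that of all features. For intergenic H3 over input after normexp, the standard error was 0.35 at every named member in Δhrp1 and 0.41 in Δmed15. For intergenic Med15-myc after normexp it was 0.35 to 0.36. Those p-values and standard errors thus rest on a spread pooled over features and do not measure each gene's own spread.

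Histone H3 relative to input was low over small subunit genes in both deletion strains. After normexp, the median ORF ratio of the 53 genes was -1.07 in Δhrp1 and -1.0 in Δmed15, against 0.01 over all ORF features in Δhrp1. The median of the 50 intergenic regions was -0.89 in Δhrp1 and -1.02 in Δmed15, against 0.04 and 0.01 over all regions. A ratio near -1 is about 2 times less H3 DNA, relative to input, than at the median feature. The ratio was below 0 in all 5 samples at 37 of 53 ORFs (69.8%), against 13.5% of all ORFs, and at 30 of 50 intergenic regions (60.0%), against 15.7%. It was above 0 in all 5 samples at none.

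The same held sample by sample. The ORF medians after normexp were -0.86, -1.22 and -1.31 in the Δhrp1 samples and -1.03 and -1.02 in the Δmed15 samples. The intergenic medians were -0.56, -0.95 and -1.14 in Δhrp1 and -0.93 and -0.99 in Δmed15. Both strains thus lay below the median feature in every sample, and their ranges overlapped. As scanned, the medians were also below 0 in every sample (-1.17 to -0.87 on ORF arrays, -1.08 to -0.50 on IGR arrays), and 54.7% of ORFs and 36.0% of intergenic regions were below 0 in all 5, against 10.2% and 7.7% of all features. On ORF arrays the median member stood at percentile 10.7 to 32.0 of the H3 channel. In the input channel it stood at percentile 42.4 to 48.4 in Δhrp1, but at 61.5 and 63.6 in Δmed15, where the input was thus bright as well. On IGR arrays the median member stood at percentile 36.5 to 48.6 of the H3 channel and at percentile 63.2 to 67.2 of the input channel. The low ratio there came with a bright input and an H3 channel only somewhat below the median. In the deposited H3 signal, which is not divided by input, the intergenic medians were -0.36 to -0.16 in the deletion samples. That signal was below 0 in all 7 H3 samples, wildtype included, at 10 of 45 regions (22.2%, against 20.1% of all regions). Over ORFs it was so at 23 of 50 (46.0%, against 18.0%).

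**Figure D1:**
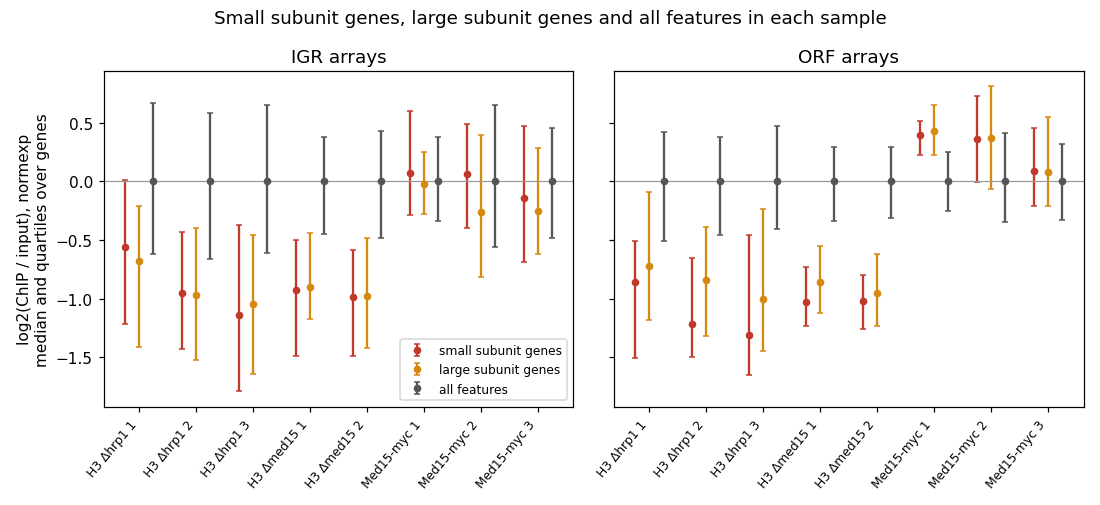
Median log2(ChIP / input) after normexp by sample (vertical axis, 0 is the array's median feature), with quartiles as bars, for small subunit genes, large subunit genes and all features on each array type. The H3 medians of both subunits sit below 0 in all 5 samples, and the Med15-myc medians of small subunit ORFs, 0.39, 0.36 and 0.09, sit above it.

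By the test on normexp values, 34 of 53 ORFs passed as lower than the median feature in Δhrp1, against 6.06% of all ORF features, and 6 of 53 in Δmed15, against 1.51%. In intergenic regions 24 of 50 passed in Δhrp1, against 10.3%, and 20 of 50 in Δmed15, against 6.04%; none passed as higher. On the ratios as scanned no feature passed in any of these 4 tests (0.0% of all features), while 30 of 53 ORFs in each strain and 12 of 50 intergenic regions in each strain had an unadjusted p under 0.05. Over all features that share was 14.0% and 5.92% on ORF arrays and 9.11% and 2.48% on IGR arrays, for Δhrp1 and Δmed15 in that order. The normexp counts also rest on single samples. Without replicate 3 of Δhrp1, its only one with ChIP in Cy5, 1 ORF passed in Δhrp1, against 46 lower and 0 higher of all 4898. In intergenic regions 2 then passed, against 67 lower and 10 higher of all 4963. Without replicate 2 of Δhrp1, 7 ORFs passed (68 lower and 7 higher of all) and 15 regions (254 lower and 88 higher of all). Leaving out either Δmed15 sample left 1 sample of that strain, and nearly all calls in Δmed15 were lost. The Δmed15 medians were then -1.09 over ORFs and -1.31 over intergenic regions without replicate 1. Without replicate 2 they were -0.83 and -0.85. Without replicate 2 of Δhrp1, which shares the estimate of spread, 2 ORFs passed in Δmed15, against 43 lower and 0 higher of all ORFs.

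Large subunit genes had like values: 31 of 78 ORFs passed as lower in Δhrp1 (median -0.80) and 10 in Δmed15 (median -0.87), and 42 and 26 of 82 intergenic regions passed (medians -0.92 and -0.95). The listed translation factors had ORF medians of -0.68 in Δhrp1 and -0.65 in Δmed15 (n = 11). The listed regulators of ribosomal protein genes, with kinases of the TOR pathway, had ORF medians of 0.20 and 0.17 (n = 10). Low ratios were thus also measured at large subunit genes and, less far below 0, at the translation factors.

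Among proteins of the body, rps2 had the lowest intergenic ratio. It encodes uS5, which lines the channel where mRNA enters. Its ratios were -2.36, -2.91 and -2.56 in Δhrp1 and -1.76 and -2.45 in Δmed15. All 5 samples were far below 0, and the strains overlapped. The fitted ratio was -2.55 ± 0.35 in Δhrp1 (5.87-fold below the median region, adjusted p = 2.8e-11) and -2.10 ± 0.41 in Δmed15 (4.29-fold, adjusted p = 2.9e-05). Over its ORF the ratio was -1.68 ± 0.27 in Δhrp1 (adjusted p = 0.0078) and -1.84 ± 0.32 in Δmed15 (adjusted p = 0.027).

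The single-copy gene rps13 encodes uS15, which contacts the large subunit. Its ORF ratios were -1.94, -2.19 and -1.94 in Δhrp1 and -2.19 and -1.85 in Δmed15, a spread of less than 0.4 over all 5 samples. The fit gave -2.03 ± 0.22 in Δhrp1 (adjusted p = 0.00093) and -2.02 ± 0.26 in Δmed15 (adjusted p = 0.0058). Its intergenic region was as low, at -2.16 ± 0.35 (adjusted p = 4.7e-08) and -2.04 ± 0.41 (adjusted p = 5.8e-05).

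The other body genes that passed in intergenic regions in Δhrp1 were rps21 (-1.89), rps7 (-1.67), rps1102 (-1.52), rps602 (-1.28), rps801 (-1.18), rps3001 (-1.15) and rps2401 (-1.06). They encode eS21 of late assembly, eS7, uS17 and eS24 of early assembly, eS6, the target of S6 kinases, eS8 of the foot and eS30 near the decoding centre. In Δmed15 the same genes except rps3001 passed, at -1.88 (rps1102) to -1.44 (rps2401). On ORF arrays rps7 (-1.52), rps21 (-1.46), rps2302 (-1.41), rps1102 (-1.39), rps1101 (-1.36) and rps23 (-1.34) passed in Δhrp1; rps23 and rps2302 are copies for uS12, a protein of the decoding centre. The 3 copies for eS4, rps401, rps402 and rps403, passed there too (-0.96, -1.13 and -1.08), as did rps901 (-1.18), rps2401 (-1.12), rps601 (-1.11) and rps602 (-1.10). In Δmed15 only rps1102 (-1.62), rps2302 (-1.56) and rps21 (-1.40) joined rps13 and rps2 among body ORFs; the ratio of rps7 was as low (-1.58), with an adjusted p of 0.061.

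In the head, the lowest intergenic ratios in Δhrp1 were those of rps1602 (-2.07) and rps20 (-2.05). rps1602 encodes uS9, whose tail reaches the tRNA in the P site, and rps20 encodes uS10, needed to build the head. The other 7 head genes that passed were rps1601 (-1.29), rps3 (-1.16), rps1201 (-1.09), rps1502 (-1.08), rps1901 (-1.07), rps2502 (-0.99) and rps1701 (-0.97), and in Δmed15 all of these except rps1502 passed together with rps20 and rps1602, from -1.67 (rps20) to -1.26 (rps1602). On ORF arrays rps20 (-2.10 ± 0.32, adjusted p = 0.0058) and rps29 (-1.87 ± 0.24, adjusted p = 0.0026), for uS14, were the lowest of 15 that passed in Δhrp1, and the rest lay between -1.35 (rps2801) and -0.86 (rps1702). In Δmed15 the head's one ORF to pass was rps1201 (-1.52 ± 0.27, adjusted p = 0.027), for eS12 of the beak.

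The platform had the lowest intergenic median in Δhrp1, -1.64, with 6 of 7 genes passing: rps1402 (-2.15), rps2602 (-1.69), rps27 (-1.64), rps2601 (-1.64), rps1401 (-1.01) and rps101 (-0.93). The copies of rps14 and rps26 encode uS11 and eS26, which line the channel where mRNA leaves, and rps101 and rps102 encode eS1. In Δmed15 the platform median was -1.21, with rps27 (-1.73), rps2602 (-1.59), rps1402 (-1.37) and rps1401 (-1.21) passing. The head and body medians were -0.88 and -0.73 in Δhrp1 and -1.08 and -0.74 in Δmed15. On ORF arrays the 3 places had closer medians in Δhrp1, -0.97 in the head, -1.01 in the platform and -1.12 in the body. rps2601 had the lowest platform ORF, with ratios of -1.71, -2.45 and -1.90 in Δhrp1 and -0.96 and -1.06 in Δmed15. Every Δhrp1 value was below both Δmed15 values, but the difference, -0.98 ± 0.36, did not pass the test.

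A few genes stood at or above the median feature. The ORF of rps1901, for eS19 of the head, had fitted ratios of 0.26 ± 0.23 in Δhrp1 and 0.17 ± 0.27 in Δmed15, and that of rps102 0.18 ± 0.21 and -0.49 ± 0.25. The intergenic region of rps401 had 0.65 ± 0.35 in Δhrp1 and -0.36 ± 0.41 in Δmed15, and that of rps1002, for eS10 of the beak, 0.52 ± 0.35 and -0.30 ± 0.41. None of these passed the test.

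**Figure D2:**
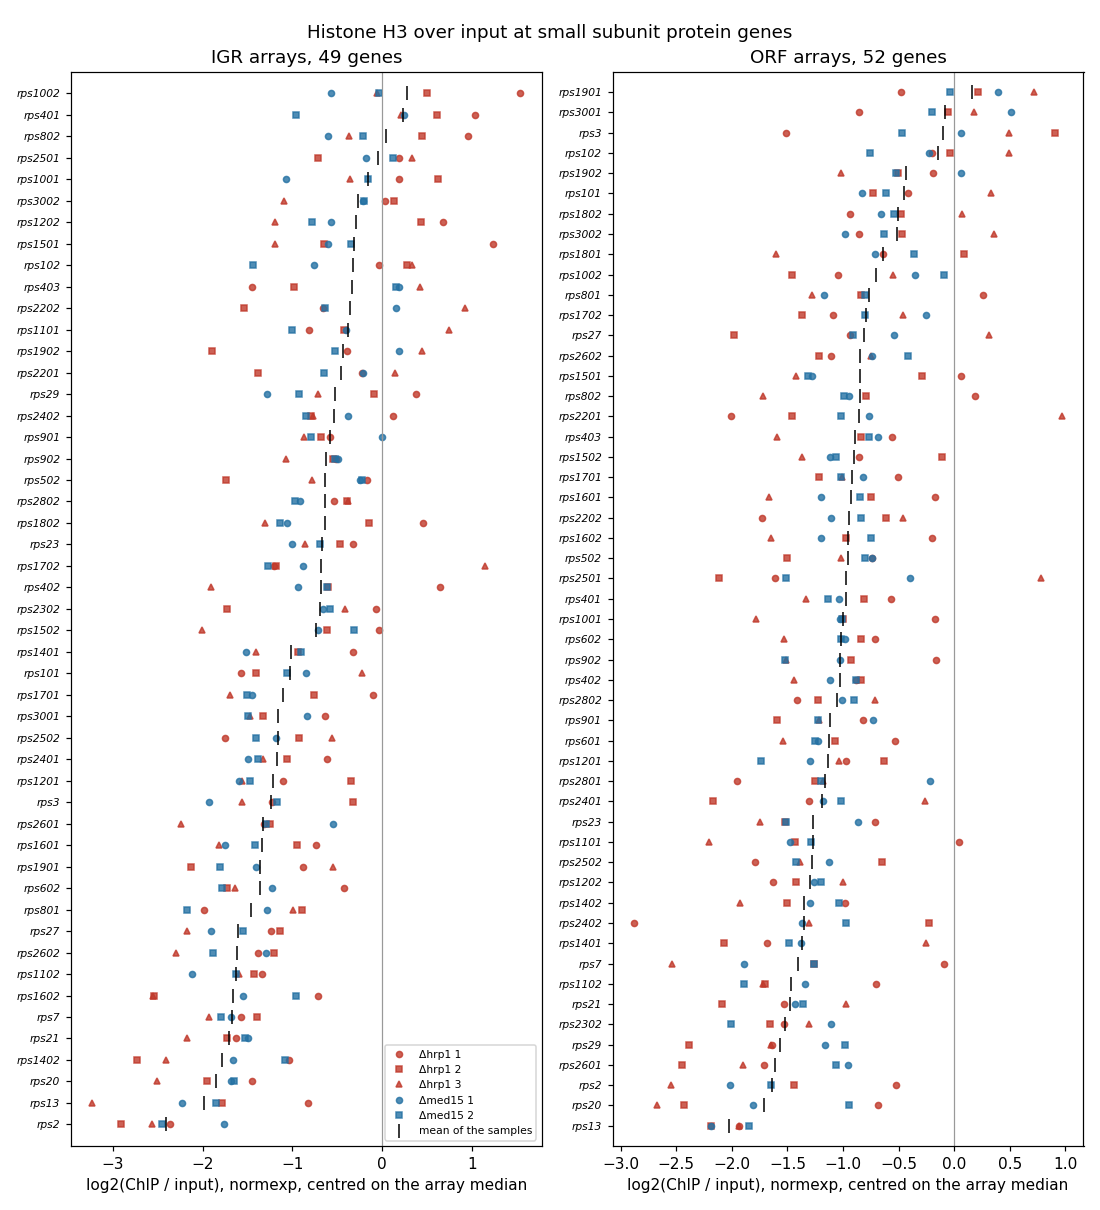
H3 over input after normexp, as log2(ChIP / input) centred on the array median (horizontal axis), for the small subunit genes reported here (rows, sorted by the mean) in 3 Δhrp1 samples (red) and 2 Δmed15 samples (blue); the black bar is the mean of the samples. Most points of both strains lie left of 0 on both array types, with rps2 lowest among intergenic regions and rps13 lowest among ORFs.

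No member passed in the direct comparison of the strains. Of the members, 0 of 50 intergenic regions and 0 of 53 ORFs passed between Δhrp1 and Δmed15 as scanned, against 0.0% of all features higher and 0.0% lower on either array type, and no member had an unadjusted p under 0.05. After normexp again none passed, against 0.0403% of all regions higher and 0.0201% lower and 0.0% of ORFs, and 1 member on each array type had an unadjusted p under 0.05. On IGR arrays it was rps102, with ratios of -0.03, 0.28 and 0.33 in Δhrp1 and -0.76 and -1.44 in Δmed15, a difference of 1.36 ± 0.53. The median difference over members was 0.11 on IGR arrays and 0.00 on ORF arrays after normexp, and 0.29 and 0.15 as scanned. The arrays of Δhrp1 and those of Δmed15 carry different dates in their names, so strain and date cannot be told apart.

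Against wildtype, H3 can be compared only as the deposited ChIP channel, which is log2 of the background-subtracted ChIP signal less a constant for each array file, with no division by input. All comparisons with wildtype share the same 2 wildtype samples, both with ChIP in Cy3, and dye was a term of the fit. No array date was at hand for wildtype, so strain and date cannot be told apart in these comparisons. Over all ORFs, deposited values of Δhrp1 samples correlated with wildtype at 0.28 to 0.39 and with Δmed15 at 0.57 to 0.68. The 2 wildtype samples correlated at 0.92. The genes rps20, rps1901 and rps2501 have no values in this table and were not analysed here, which left 47 intergenic regions and 50 ORFs. In each of the 4 comparisons, leaving out either wildtype sample left 0 members past the threshold, so every call below rests on that pair of samples.

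As a check on the labels, the ORF spot of hrp1 read -5.23, -5.99 and -4.53 in Δhrp1, 1.86 and 1.41 in Δmed15, and 1.49 and 1.41 in wildtype. That of med15 read -4.74 and -4.02 in Δmed15, -0.58, 0.23 and -0.26 in Δhrp1, and -1.78 and -1.44 in wildtype. Each deleted gene was lowest in its own strain. On ORF arrays values near -4 or below are thus at the level of absent DNA, and the size of a difference that involves them is not exact. The intergenic spots of these names gave no such level. That of med15 read -2.23 and -1.97 in Δmed15, -5.17, -1.34 and -1.13 in Δhrp1, and -0.34 and -0.14 in wildtype, so it was lowest in a Δhrp1 sample. That of hrp1 read -3.15, -2.17 and -1.79 in Δhrp1, -0.92 and -0.19 in Δmed15, and -0.98 and -0.87 in wildtype.

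In Δhrp1, 8 of 47 intergenic regions were lower than in wildtype and none was higher, against 8.44% of all regions lower and 4.08% higher. The median difference over the members was -0.31, against -0.08 over all regions. On ORF arrays 12 of 50 were lower and 1 was higher, against 14.0% lower and 13.7% higher over all ORFs, with a median of -0.94 against 0.03. The large subunit had 10 of 67 intergenic regions lower and 3 higher, and 16 of 65 ORFs lower and 3 higher.

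Both copies for uS9 were among the 8 intergenic regions. rps1602 read -2.44, -2.50 and -1.49 in Δhrp1, against 1.31 and 1.64 in wildtype. rps1601 read -3.27, -2.10 and -1.58 in Δhrp1, against 0.58 and 0.69 in wildtype. The strains did not overlap at either copy, and the differences were -3.72 ± 0.58 (13.2-fold lower, adjusted p = 0.017) and -3.06 ± 0.65 (8.36-fold, adjusted p = 0.022). Their ORFs did not pass: the fitted differences were 1.52 ± 0.55 (adjusted p = 0.069) for rps1601 and 0.80 ± 0.56 (adjusted p = 0.31) for rps1602.

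The intergenic regions of both copies for uS8, a protein that joins early in assembly, were lower as well. rps2201 read -4.59, -3.94 and -2.24 in Δhrp1, against -0.95 and -0.84 in wildtype, a difference of -3.29 ± 0.54 (adjusted p = 0.017). rps2202 read -4.76 and -2.60 in the 2 Δhrp1 samples with a value, against -1.17 and -0.90 in wildtype, a difference of -3.73 ± 0.69 (adjusted p = 0.020); its Δhrp1 replicate 1 and Δmed15 replicate 2 were at the floor of the table and left out. Both regions are dim on these arrays. The H3 channel of rps2201 had 29.25 and 186.5 units over a local background of 0.0 in the Cy3 samples of Δhrp1, and 2340.0 over 1791.25 in the Cy5 sample. The ORFs of these copies went opposite ways. That of rps2201 differed by -3.17 ± 0.61 (adjusted p = 0.011), and that of rps2202 by 1.40 ± 0.77 (adjusted p = 0.20), which did not pass.

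The remaining intergenic regions were those of rps2, rps1702, rps502 and rps13. rps2 read -2.56, -2.20 and -1.06 in Δhrp1, against 0.24 and 0.47 in wildtype, a difference of -2.48 ± 0.60 (5.58-fold lower, adjusted p = 0.031). rps13 read -1.70, -1.85 and -1.21 in Δhrp1, against 0.96 and 0.31 in wildtype, a difference of -2.22 ± 0.58 (4.67-fold lower, adjusted p = 0.036). These 2 regions, low in H3 over input in both deletion strains, did not overlap wildtype. At rps1702, for eS17 at the base of the head, Δhrp1 and wildtype overlapped, with -4.78, -4.05 and -2.41 in Δhrp1, against -2.53 and -1.41 in wildtype, and differed by -2.46 ± 0.59 (adjusted p = 0.030). The region of rps502, for a protein at the mRNA exit, differed by -2.34 ± 0.57 (adjusted p = 0.031).

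On ORF arrays the member with the lowest adjusted p was rps7, for eS7. It read -1.83, -2.02 and -2.04 in Δhrp1, against 0.93 and 1.08 in wildtype, a difference of -2.84 ± 0.37 (7.15-fold lower, adjusted p = 0.0051). rps3, for uS3 at the mRNA entry, read -5.02, -1.10 and -2.35 in Δhrp1, against 1.43 and 1.16 in wildtype. The Δhrp1 samples were all below wildtype but differed among themselves by almost 4 units, and the fit gave -4.16 ± 1.03 (adjusted p = 0.022). The value of -5.02 is at the level of absent DNA, so the size of this difference is not exact. H3 over input at the rps3 ORF after normexp was near the median feature, at 0.08 ± 0.39 in Δhrp1 and -0.20 ± 0.46 in Δmed15. rps1202, for eS12, read -4.09, -2.16 and -1.19 in Δhrp1, against 1.23 and 0.74 in wildtype, a difference of -3.78 ± 0.72 (adjusted p = 0.011). Its copy rps1201 differed by -1.59 ± 0.52 (adjusted p = 0.054).

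Other ORFs that fell included rps2201 (-3.17), rps3001 (-2.15), rps2802 (-1.95), rps1401 (-1.93), rps402 (-1.80), rps1402 (-1.68), rps1802 (-1.36) and rps401 (-1.15), with adjusted p of 0.011 to 0.049. With replicate number as a block, rps1802 (-1.23) and rps401 (-1.20) no longer passed. Both copies for uS11 (rps1401 and rps1402) and 2 of the 3 for eS4 were among them; the third eS4 copy, rps403, had -1.15 ± 0.38 (adjusted p = 0.055). One ORF rose. rps2602, for eS26, read -1.49, -2.19 and -1.71 in Δhrp1, against -3.76 and -3.13 in wildtype, a difference of 1.52 ± 0.43 (2.87-fold higher, adjusted p = 0.034), with both wildtype values approaching the level of absent DNA. Only rps2201 passed on both array types in Δhrp1.

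In Δmed15 few genes passed. Of 47 intergenic regions 2 were lower and none higher, against 0.184% of all regions lower and 0.041% higher, and of 50 ORFs 2 were lower and none higher, against 2.4% lower and 3.09% higher. At an unadjusted p under 0.05 these counts were 9 of 47 (19.1%, against 19.0% of all regions) and 18 of 50 (36.0%, against 25.2% of all ORFs). The median difference was -0.48 in intergenic regions and -0.56 in ORFs, against -0.07 and -0.02 over all features.

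rps2201 passed on both array types. Its intergenic region read -3.62 and -5.05 in Δmed15, against -0.95 and -0.84 in wildtype, a difference of -4.32 ± 0.62 (adjusted p = 0.026). Its ORF read -3.09 and -3.09 in Δmed15, against -0.30 and -0.88 in wildtype, a difference of -3.03 ± 0.70 (adjusted p = 0.048). The groups did not overlap on either. The intergenic region of rps1702 read -4.02 and -6.14 in Δmed15, against -2.53 and -1.41 in wildtype, a difference of -4.14 ± 0.68 (adjusted p = 0.048). Both intergenic calls in Δmed15, rps2201 and rps1702, rest on low signals. With only features of a mean deposited value above -3, these 2 regions dropped out. Of the 45 members left, 0 passed, against 2 higher and 3 lower of all 4822 regions. The ORF of rps3001, for eS30, read -3.23 and -2.69 in Δmed15, against 0.50 and 0.79 in wildtype, a difference of -3.67 ± 0.62 (12.7-fold lower, adjusted p = 0.025). H3 over input at the rps3001 ORF was near the median feature, at -0.13 ± 0.24 in Δhrp1 and 0.15 ± 0.28 in Δmed15. In Δmed15, H3 over input at rps2201 was -0.43 ± 0.41 in the intergenic region and -0.90 ± 0.40 in the ORF. With replicate number as a block, the rps2201 ORF had -2.72 and no longer passed in Δmed15. Every Δmed15 call was lost when either Δmed15 sample was left out, or Δhrp1 replicate 3, which shares the estimate of spread and dye; without Δhrp1 replicate 1, 7 of 47 intergenic regions passed as lower, against 372 lower and 226 higher of all 4881 regions, and 13 of 50 ORFs passed as lower and 3 as higher, against 440 lower and 385 higher of all 4785 ORFs.

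**Figure D3:**
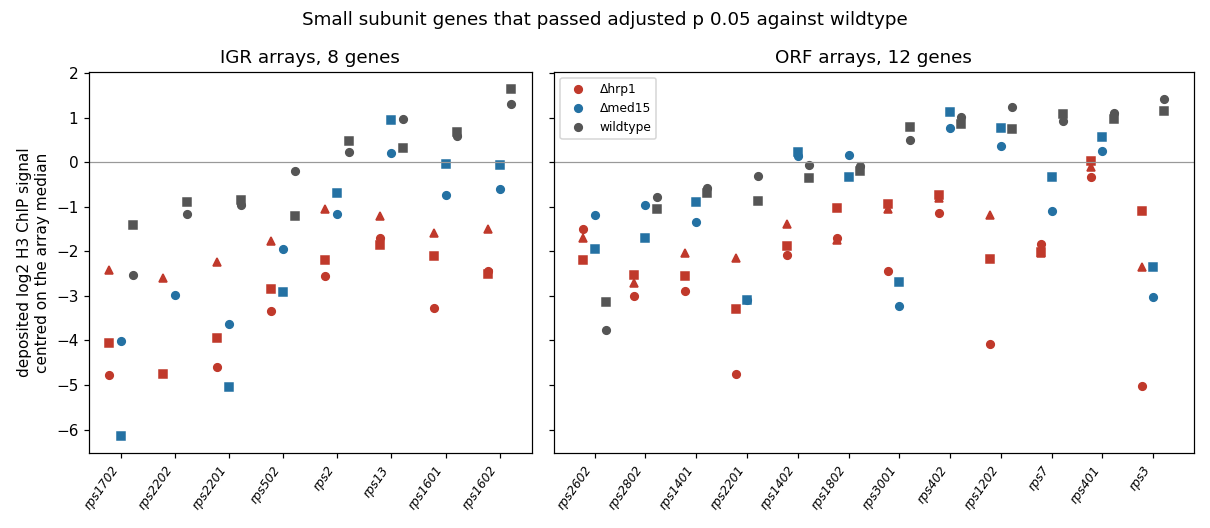
Deposited log2 H3 ChIP signal (not divided by input) of the 8 intergenic regions and 12 of the 13 ORFs that passed in a deletion strain against wildtype, in 3 Δhrp1, 2 Δmed15 and 2 wildtype samples. The wildtype points lie above the Δhrp1 points at every gene shown except intergenic rps1702, where they overlap, and the rps2602 ORF, where they lie below.

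Med15-myc ratios over the ORFs of small subunit genes had a median somewhat above that of all ORFs, and those over their intergenic regions did not. The median ORF ratio was 0.31 as scanned and 0.33 after normexp, against 0.02 and 0.01 over all ORFs, and the median member stood at percentile 83.1 and 83.2. This came with a low input in each sample rather than with a high ChIP signal in each: the median member stood at percentile 58.5, 46.7 and 48.3 of the ChIP channel and at percentile 43.3, 40.6 and 36.3 of the input channel. On the deposited ChIP channel, with no division by input, the median over 50 ORFs was -0.21. By sample, the normexp ORF medians were 0.39, 0.36 and 0.09. The ratio was above 0 in all 3 samples at 19 of 53 ORFs (35.8%), against 17.9% of all ORFs, or at 18 (34.0%) against 11.7% as scanned. Large subunit ORFs had medians of 0.30 as scanned and 0.37 after normexp, and 39.7% were above 0 in all 3 samples. The intergenic median was -0.10 as scanned and -0.02 after normexp, and 11 of 50 regions (22%) were above 0 in all 3 samples, against 17.3% of all regions.

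No single ORF passed. As scanned, 0 of 53 did, against 0.0% of all ORFs higher and 0.0% lower, and 0 of 53 and 79 of 4898 had an unadjusted p under 0.05. After normexp 0 of 53 passed, against 0.143% higher and 0.306% lower, and 10 of 53 had an unadjusted p under 0.05, against 14.1% of all ORFs. The highest were rps1802 and rps1201. rps1802, for uS13, which contacts the large subunit, had ratios of 0.08, 1.41 and 1.17, for a fit of 0.89 ± 0.28 (adjusted p = 0.23). rps1201 had 0.97, 1.11 and 0.51, for a fit of 0.86 ± 0.21 (adjusted p = 0.14). rps3 (0.70), rps1702 (0.66) and rps1801 (0.65) came next, and rps2601 (-0.43), rps13 (-0.33) and rps23 (-0.23) were the lowest.

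Among intergenic regions, rps1602 and rps2202 passed as higher after normexp, 2 of 50, against 1.25% of all regions higher and 1.13% lower; none passed as lower. rps1602 had ratios of 1.73, 2.18 and 1.13, above every other member's in 2 of the 3 samples, for a fit of 1.68 ± 0.35 (3.21-fold over the median region, adjusted p = 0.0014). rps2202 had 1.05, 1.95 and 0.62, for a fit of 1.20 ± 0.36 (2.30-fold, adjusted p = 0.048). Both were above 0 in 3 of 3 samples. As scanned neither passed: 0 of 50 members did, against 0.0% of all regions higher and 0.0% lower, and at an unadjusted p under 0.05 there were 0 members and 35 of 4963 regions.

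The 2 regions rest on different signals. In Med15-myc replicate 1, rps1602 had 8635.75 units in the ChIP channel over a local background of 75 and 6059.75 over 2201.0 in the input. In replicates 2 and 3 its ChIP signal was 6098.5 over 3184.0 and 1868.0 over 260.5. rps2202 had 4044.25 over 191.5 in the ChIP channel of replicate 1, but its input was 70.5 over 0.0 in replicate 2, and 6485.5 over 6451.25 in replicate 3. Its ratio in those samples thus divides by a nearly empty channel, and its as-scanned ratios were 0.57, 4.88 and -2.37. Without replicate 1 neither region passed, and the call on rps2202 was lost when any one sample was left out.

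The other copies had lower ratios. rps1601, with the same protein as rps1602, had intergenic ratios of -0.33, 0.20 and 0.48, for a fit of 0.12 ± 0.35. rps2201, with the same protein as rps2202, had -0.53, 1.25 and 0.19, for a fit of 0.30 ± 0.36. The next highest were rps1501 (0.94), for uS19 at the decoding site, rps27 (0.89) and rps3002 (0.84), each above 0 in 3 of 3 samples and none passing. The lowest were rps2401, with -1.34, -0.38 and -1.81 (fit -1.18 ± 0.36, adjusted p = 0.056), and rps13, with -1.02, -1.58 and -0.82 (fit -1.14 ± 0.35, adjusted p = 0.060), both below 0 in 3 of 3 samples. By place, the ORF medians were 0.37 in the head, 0.33 in the platform and 0.27 in the body.

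**Figure D4:**
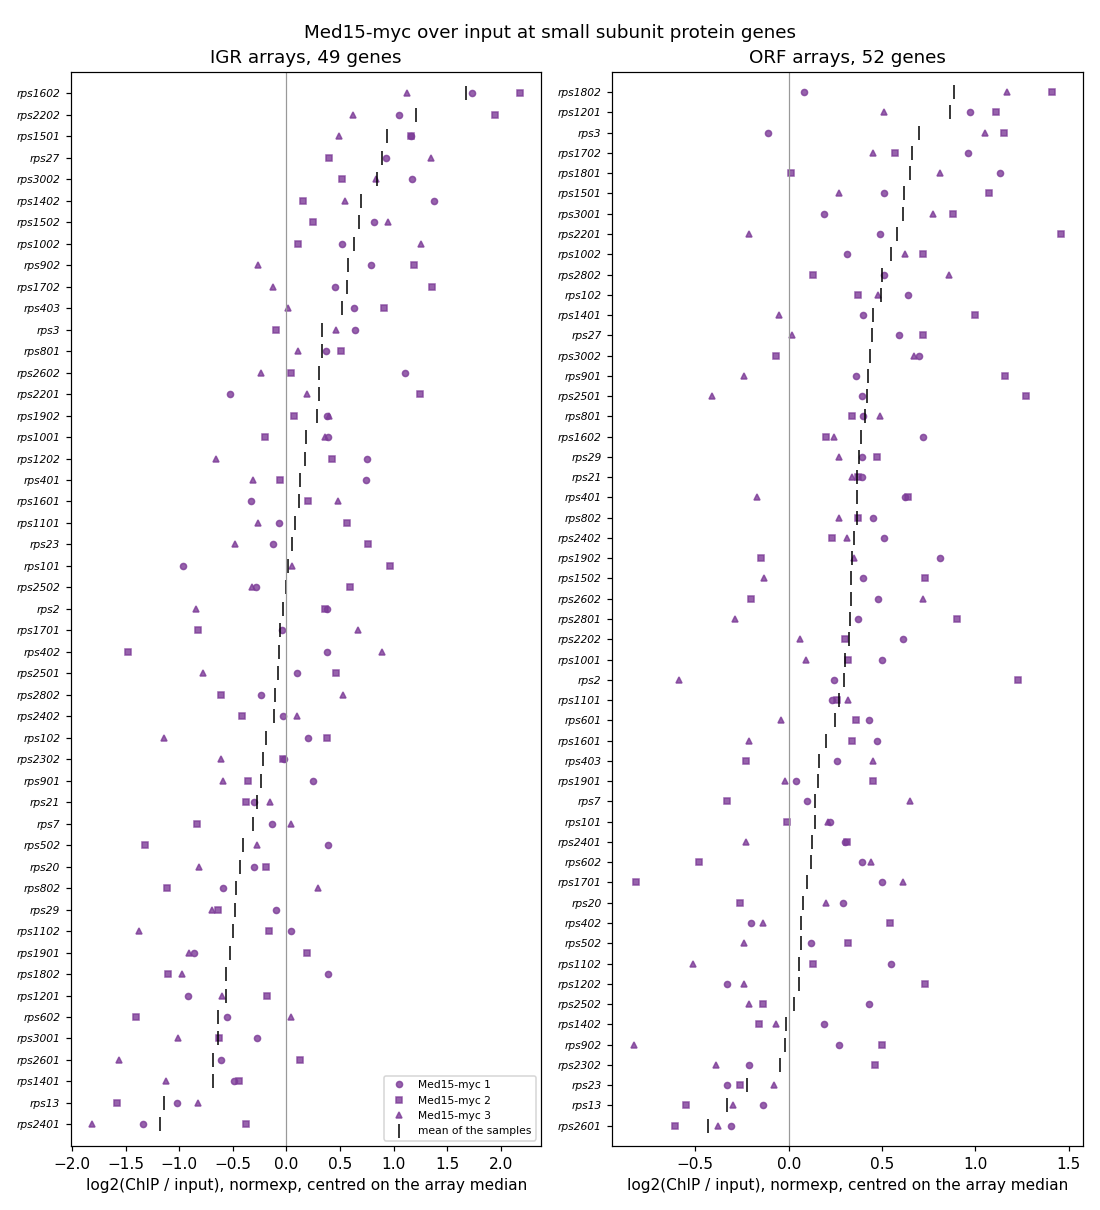
Med15-myc over input after normexp, as log2(ChIP / input) centred on the array median (horizontal axis), for the small subunit genes reported here (rows, sorted by the mean) in 3 samples; the black bar is their mean. Intergenic rps1602 and rps2202 stand at the top, and the ORF points lie mostly right of 0.

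The highest intergenic Med15-myc regions after normexp, rps1602 and rps2202, were both among the 8 that passed as lower in H3 signal in Δhrp1 against wildtype. Over all regions, 1.25% passed as higher for Med15-myc and 8.44% as lower in H3. How many of all regions passed in both was not counted, and a link between the measures was not tested. Neither passed for Med15-myc as scanned, and at rps2202 both calls rest on dim channels, as given above. Intergenic H3 over input after normexp, as a mean of all 5 samples, was -1.67 at rps1602 but only -0.35 at rps2202. In Δmed15 they differed from wildtype by -1.98 ± 0.66 (adjusted p = 0.15) and -4.11 ± 0.95 (adjusted p = 0.091), which did not pass. Across the members, Med15-myc and H3 over input after normexp correlated at r = 0.52 (Spearman 0.54) over 53 ORFs and at 0.21 (0.26) over 50 intergenic regions. Both measures are ratios to an input and share the spots, and genes are not independent replicates. Between the array types, the same genes correlated at 0.31 for H3 and at 0.23 for Med15-myc.

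Medians were also taken by promoter element, counted as present only where its exact string was found, so genes without it may hold a near match. The median intergenic H3 ratio in Δhrp1 was -1.06 for the 31 genes with HomolD and -0.76 for the 19 without, and in Δmed15 -1.17 and -0.78. For HomolE the same medians were -0.88 with it (n = 23) and -0.93 without it (n = 27) in Δhrp1, and -1.10 and -0.96 in Δmed15. Over ORFs the H3 medians with and without HomolD (n = 33 and 20) were -1.01 and -1.10 in Δhrp1 and -0.98 and -1.04 in Δmed15, the other way round from the intergenic ones, and those with and without HomolE (n = 23 and 30) were -1.27 and -0.92 in Δhrp1 and -1.19 and -0.96 in Δmed15. The ORF Med15-myc median was 0.16 with HomolE (n = 23) and 0.36 without it (n = 30). The values with and without an element overlapped in each case, and no test was made.

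Copied genes are a limit of the ORF arrays, since near-identical coding sequences can hybridise to each other's spots. The 24 pairs of copies were 74.5% (rps1201 and rps1202) to 94.5% identical in coding sequence, with a median of 88.15%, and 8 pairs encode the same protein. Over ORFs, the H3 ratios of copies differed by a median of 0.14, against 0.40 for 1354 pairs of different families. In intergenic regions, whose products are named for DNA outside the coding sequence, the medians were 0.56 for 21 pairs of copies and 0.63 for 1204 other pairs. For Med15-myc the ORF medians were 0.24 and 0.26. Identity and the size of the H3 difference had a Spearman coefficient of -0.44 over the 24 ORF pairs and -0.10 over 21 intergenic pairs. Cross-hybridisation and a true likeness of copies cannot be told apart on these arrays, so an ORF value of a copied gene may belong to its pair.

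**Figure D5:**
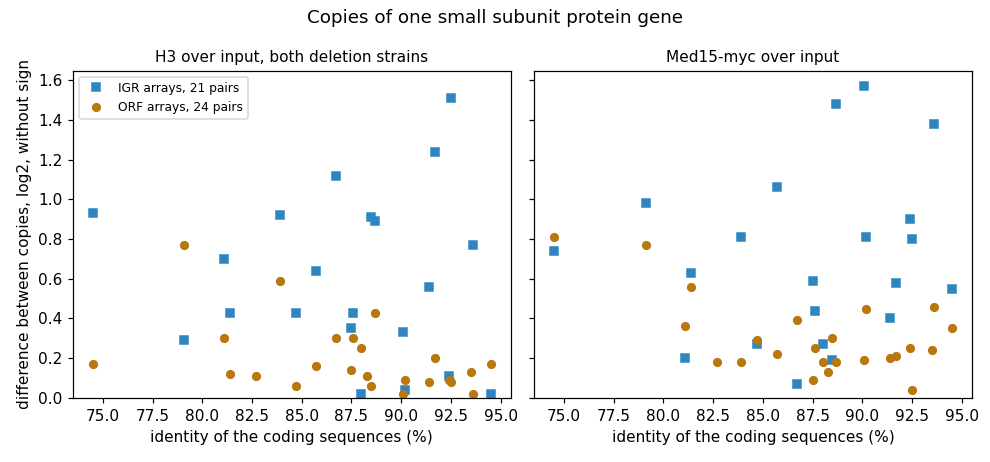
Absolute log2 difference between 2 copies of a gene (vertical axis) against the percent identity of their coding sequences (horizontal axis), for H3 over input and Med15-myc over input after normexp, with 21 pairs on IGR arrays and 24 on ORF arrays. The H3 differences of ORF copies are mostly small, with a median of 0.14, against 0.56 for intergenic copies.

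Some copies differed even so. Intergenic Med15-myc differed by 1.57 between rps1602 and rps1601 and by 1.48 between rps3002 and rps3001. Over ORFs, Med15-myc differed by 0.81 between rps1201 and rps1202, the least alike pair, and H3 over input by 0.77 between rps2602 and rps2601, a pair with 79.1% identity. The deposited wildtype ORF signal differed by 3.05 between rps2201 and rps2202, although their coding sequences are 92.4% identical.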

How the data were processed

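Spotted 2-colour arrays were deposited as 2 scanner files a sample, with an intensity and a local background per channel and spot, per the file headers; the labels give the dye of each sample. The log2 values deposited by the authors in the series' value table matched log2 of the ChIP intensity less its background, minus a constant per file, at 725 of 725 IGR and 794 of 794 ORF member spots (tolerance 0.05); for wildtype, whose scanner files were not used here, this form is inferred. The sources used here do not name the software behind these values.

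Duplicate spots were averaged, ChIP was divided by input, and log2 ratios were centred on the array median, with intensities below 1 set to 1 (as scanned). The normexp setting used limma's backgroundCorrect with an offset of 50. Fits used limma 3.58.1 in R 4.3.3 (lmFit, eBayes) on all features of an array type, with Benjamini-Hochberg adjustment, and were tested on simulated data; tables used Python 3.11.15 with numpy 2.4.6 and pandas 2.3.3. H3 over input was fitted with a mean per strain, and wildtype comparisons used the 7 samples' deposited log2 values with strain and dye as terms. The after-normexp, loess, dye, dim-spot, scaling, floor, block and leave-one-out alternatives are in the closing section.

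Named genes were those past the threshold, the extremes of each comparison, their copies and the single-copy genes. The values of 1 member, counted throughout, are not reported here. The members and lists were chosen with earlier results of these data known. Same-numbered H3 samples of different strains had deviations that correlated at 0.12 to 0.20 (6 pairs, IGR) and 0.02 to 0.33 (ORF); as every IGR pair was over 0.1, the blocked values are given where they change a call. Promoters and coding sequences are from RefSeq, build ASM294v3, and all 53 genes were found there by symbol, systematic name or synonym (the arrays name rps101 as rps3a-1 and rps2201 as rps15a-1). The sources used here do not give the array's own build.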

Additional observations from a re-analysis of the deposited data

How the results depend on the processing

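No member that passed changed sign under the alternatives run, but medians over the members did. The Med15-myc ORF median (0.31 as scanned) was -0.21 on the deposited ChIP channel. The Med15-myc intergenic median (-0.10 as scanned, -0.02 by normexp) was 0.16 on the deposited ChIP channel, 0.01 with a dye term and 0.20 without replicate 3, and by normexp 0.07 with a dye term and 0.05 without replicate 3. For Δhrp1 minus Δmed15, the intergenic median (0.29 as scanned, 0.11 by normexp) was -0.18 without Δmed15 replicate 2, and by normexp -0.05 without it and -0.02 without Δhrp1 replicate 1. The ORF median (0.15 as scanned) was -0.28 on the deposited ChIP channel and -0.11 without Δhrp1 replicate 3 or Δmed15 replicate 1. The medians of H3 over input in each strain and of H3 against wildtype kept their sign. Among summary counts, 113 stayed within 1.5 times and 59 moved; among single members, 572 kept their side of the threshold and 276 lost it. Counts below are members past the threshold, and the causes of these shifts were not tested.

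Med15-myc over input, 0 as scanned on both array types, gave 2 intergenic regions with normexp (both higher), 8 with loess (4 higher and 4 lower, against 162 and 338 of all 4963) and 2 on the deposited ChIP channel without input (both lower, against 265 higher and 232 lower of all 4882). It gave 4 ORFs with loess (all higher, against 141 higher and 320 lower of all 4898) and 14 on the deposited ChIP channel (7 higher and 7 lower, against 743 and 891 of all 4802). On normexp values, a dye term gave 5 regions (3 higher and 2 lower, against 320 and 267 of all), against 2. It gave 8 ORFs (all higher, against 307 higher and 291 lower of all), against 0. Leaving out each sample gave 0 to 3 regions, against 20 to 90 higher and 6 to 102 lower of all. For ORFs it gave 0 to 1, against 1 to 66 higher and 7 to 167 lower of all. H3 over input as scanned gave 0 in each strain, and each member called by an alternative was lower. Brackets give all features, higher then lower. In Δhrp1, 7 regions passed with bright features (44 and 122 of 3425). With loess 26 did (314 and 587 of 4963) and with normexp 24 (316 and 512). In Δmed15, loess gave 31 (419 and 762) and normexp 20 (24 and 300). On ORF arrays, Δhrp1 gave 5 with bright features (2 and 40 of 4405). With loess it gave 46 (294 and 567 of 4898) and with normexp 34 (119 and 297). Δmed15 gave 1 (1 and 15), 43 (163 and 500) and 6 (0 and 74) in that order. After normexp, bright features alone called 138 of all 4405 ORFs lower and 0 higher in Δmed15. On normexp values, bright features alone gave 16 ORFs in Δmed15, and leaving out each sample gave 2 to 23 regions and 1 to 38 ORFs in Δhrp1 and 0 to 24 regions and 0 to 9 ORFs in Δmed15. For Δhrp1 minus Δmed15 as scanned, leaving out each Δhrp1 sample gave 0 regions (0 and 0 to 5 of 4963).

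Against wildtype, brackets again give all features, higher then lower. Δmed15 regions (2, both lower) became 5 with arrays scaled to one spread, all lower (162 and 233 of 4881). They became 0 with means above -3 (2 and 3 of 4822) and 0 with no dye term (55 and 40 of 4881). With features measured in every sample, 1 passed as lower (1 and 4 of 4755). Cy3 samples only left 1 Δmed15 sample, with a member median of -0.45. Leaving out each Δhrp1 sample gave 0 to 7 (0 to 226 and 0 to 372 of 4881). Δmed15 ORFs (2, both lower) became 5 scaled, all lower (265 and 275 of 4785), and 1, lower, with floor values kept (114 and 104 of 4792). With no dye term 2 were higher and 10 lower (394 and 275 of 4785). Cy3 samples only gave a member median of -0.52. Leaving out each Δhrp1 sample gave 0 to 16 (3 to 385 and 8 to 440 of 4785). Δhrp1 regions (8) became 5 with no dye term, all lower (283 and 371 of 4881). Leaving out each Δhrp1 sample gave 4 to 12 regions (120 to 287 and 223 to 625 of all). For ORFs (13) it gave 15 each time (374 to 703 and 551 to 734 of all). The fits without a wildtype sample, which leave 1, had Δhrp1 member medians of -0.39 and -0.18 for regions and -0.72 and -1.15 for ORFs.

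With the replicate block, 3 of 47 regions passed in Δmed15, all lower, against 58 higher and 94 lower of all 4881. Of 50 ORFs 2 passed, both lower, against 104 higher and 87 lower of all 4785. In Δhrp1, 1 region was higher and 8 were lower, against 351 and 747 of all 4881. Among ORFs 2 were higher and 16 lower, against 737 and 924 of all 4791. The block removed the calls on the ORFs of rps2201 in Δmed15 (-2.72), and of rps1802 (-1.23) and rps401 (-1.20) in Δhrp1, and no other member's call. The block could not be fitted for H3 over input between strains, nor date as a random block for Med15-myc or that difference.

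Precision is limited by 2 or 3 samples a group, by mixed dyes and by dim channels: 26 of 50 intergenic regions and 40 of 53 ORFs were at least 1.5 times the local background in both channels on every Med15-myc array, and 38 and 44 on every H3 array.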
